A study of Mus musculus with 8 samples.

Results

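Splicing regulators of striated muscle were followed in RNA-seq of heart ventricles from mouse embryos at embryonic day 15.5. The set consisted of 10 genes chosen by name: Rbm20, Rbm24, Rbfox1, Rbfox2, Mbnl1, Mbnl2, Celf1, Celf2, Ptbp1 and Qk. Each symbol matched a row of the count table, so 10 of its 53465 genes are described, and all 10 passed the filter on low counts that left 15388 genes. The control group consisted of 4 libraries labelled WT, and the other of 4 libraries labelled with the genotype Nrg-1flox;Cdh5-CreERT2, 1 ventricle per library. The latter genotype combines floxed Nrg1, the neuregulin-1 gene, with a tamoxifen-inducible Cre recombinase driven by the promoter of Cdh5, which is active in endothelial cells. Whether the WT embryos carried a Cre or received tamoxifen is not given in the sources used here.

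These genes encode RNA-binding proteins that decide which exons of a primary transcript are kept. In developing striated muscle, RBM20, RBM24, the RBFOX proteins and the MBNL proteins favour splicing patterns of mature sarcomere and ion channel transcripts, whereas CELF proteins and PTBP1 are associated with embryonic or non-muscle patterns. QK (quaking) acts on muscle pre-mRNAs and on circular RNA formation. The amount of each regulator relative to the others therefore matters for splicing, but counts per gene measure the amount of transcript and do not show which exons were spliced in.

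Several of the regulators are themselves alternatively spliced, and some of the exons concerned (GENCODE release M21) are shown because the counts analysed here sum over transcripts with and without them. Among the 119 listed transcripts of the 10 genes that were also found in the annotation, 23 fully coding internal exons were skipped by another listed transcript. Of these, 6 belonged to Mbnl1, 5 to Rbfox2, 5 to Ptbp1, 3 to Mbnl2, 3 to Celf2 and 1 to Rbm20. No such exon was found for Rbm24, Rbfox1, Celf1 or Qk, of which Rbfox1 and Qk had only 2 listed transcripts each.

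Mbnl1 and Mbnl2 each carry an alternative exon of 54 bases, known to influence whether the protein is held in the nucleus. It lies at chr3:60614683-60614736 (plus strand, GRCm38) in Mbnl1 and at chr14:120395712-120395765 (plus strand) in Mbnl2. The exons were identical at 46 of 54 bases (85.2%), and capitals mark the bases at which they differed:
Mbnl1: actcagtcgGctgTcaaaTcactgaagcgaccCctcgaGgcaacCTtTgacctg
Mbnl2: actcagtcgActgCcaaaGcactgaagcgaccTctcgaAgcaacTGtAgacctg

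In Rbfox2, 3 of the alternative exons concern the type of protein made. An exon of 93 bases (chr15:77105577-77105669, minus strand) encodes part of the RNA recognition motif, so that its loss gives a protein with poor RNA binding. An exon of 43 bases (chr15:77091812-77091854, minus strand) is characteristic of muscle and one of 40 bases (chr15:77094451-77094490, minus strand) of brain. They are given 5′ to 3′ in the sense of the transcript:
Rbfox2, 93 bases: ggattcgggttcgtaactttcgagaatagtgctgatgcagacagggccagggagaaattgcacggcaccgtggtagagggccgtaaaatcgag
Rbfox2, 43 bases: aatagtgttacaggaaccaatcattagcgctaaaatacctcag
Rbfox2, 40 bases: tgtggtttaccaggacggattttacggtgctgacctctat

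Ptbp1 limits its own amount through an exon of 34 bases (chr10:79862014-79862047, plus strand), since transcripts that skip it are degraded. It was present in 3 listed transcripts and skipped by 2:
Ptbp1, 34 bases: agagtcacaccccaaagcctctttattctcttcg

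The library totals were 16761763 to 24144272 expected counts, and the 10 regulators held from 104 counts (Rbfox1) to 12873 counts (Qk) in a library. Expected counts divide a read that fits several genes between them. No stretch of 60 bases, the read length, was shared exactly between any of the 45 pairs of regulators, and the longest run shared by a paralog pair was 29 bases, for Rbfox1 and Rbfox2. The counts were whole numbers in all 8 libraries for Rbm20, Rbm24, Rbfox1, Rbfox2 and Mbnl1. Those of Ptbp1 were not whole in 100% of the libraries, and its exons overlap Plppr3, E130317F20Rik and Gm17134 on the opposite strand, each at 10.5 CPM (counts scaled to a common library size) or less in every library. Because the strand setting of the counting is not stated, part of the Ptbp1 count is uncertain. Mbnl2 and Celf2 also overlap an opposite gene each, Gm26679 and Gm26565, both at 0.0506 CPM or less. Nrg1 was examined as the check of the labels: it stood at 4.87 ± 0.636 CPM in WT and at 6.17 ± 0.611 CPM in the other group (SD, n = 4), and thus was not lower where the labels give a deletion (log2 fold change 0.34, edgeR's adjusted p = 0.311). Although each library is labelled as 1 ventricle, Xist, the transcript of the inactive X chromosome of female cells, and Y-linked transcripts were found together in all libraries except WT library 4, which held Xist at only 0.176 CPM. Gene counts sum over exons inside and outside the floxed sequence and over all cell types of the ventricle. Directions are therefore those of the libraries labelled Nrg-1flox;Cdh5-CreERT2, called Flox-labelled libraries. All 15 cardiomyocyte markers examined were detected in both groups, with a summed level of 49310 to 54802 CPM over the 8 libraries.

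The order of the regulators in the ventricle was taken from CPM per kilobase of exonic length, the only scale on which levels of different genes were compared here. Rbm24, which stabilises transcripts and activates muscle exons, was the most abundant at 77.7 ± 3.23 CPM per kb (SD, n = 8). Rbm20, the regulator of titin splicing, followed at 41.7 ± 2.15, Qk at 37.4 ± 1.09, Ptbp1 at 37.2 ± 1.11, Celf1 at 35.2 ± 0.783 and Rbfox2 at 29.4 ± 0.681 CPM per kb. Mbnl2 stood at 14.4 ± 0.582, Mbnl1 at 4.29 ± 0.178, Celf2 at 3.34 ± 0.115 and Rbfox1 at 1.33 ± 0.212 CPM per kb. The range from Rbm24 to Rbfox1 was thus wide, and the order of neighbours held in all 8 libraries for 7 of the 9 neighbouring pairs (exact sign-flip permutation p = 0.00781 each, the smallest possible, adjusted 0.010 over 9 pairs, two-sided). Qk and Ptbp1 had a mean ratio of 1.004 over the 8 libraries (exact sign-flip permutation p = 0.859, adjusted 0.859), but their order went with the group: Ptbp1 was higher in all 4 WT libraries (37.3 to 38.9 CPM per kb, Qk 36.0 to 37.2) and Qk in all 4 Flox-labelled libraries (37.2 to 39.2 CPM per kb, Ptbp1 35.4 to 37.1). This split was seen after the values were known and was not tested, and it depends on the length used, since per kilobase of the longest transcript Qk was higher in all 8 libraries. Ptbp1 exceeded Celf1 in 7 of 8 libraries by a ratio of 1.06 (exact sign-flip permutation p = 0.0313, adjusted 0.0352). The order was set by the means of these same 8 libraries, so the 9 tests are no independent support for it. They describe how steady it was between libraries and do not cover the choice of length, on which the order of Rbm20 and Qk depended.

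**Figure D1:**
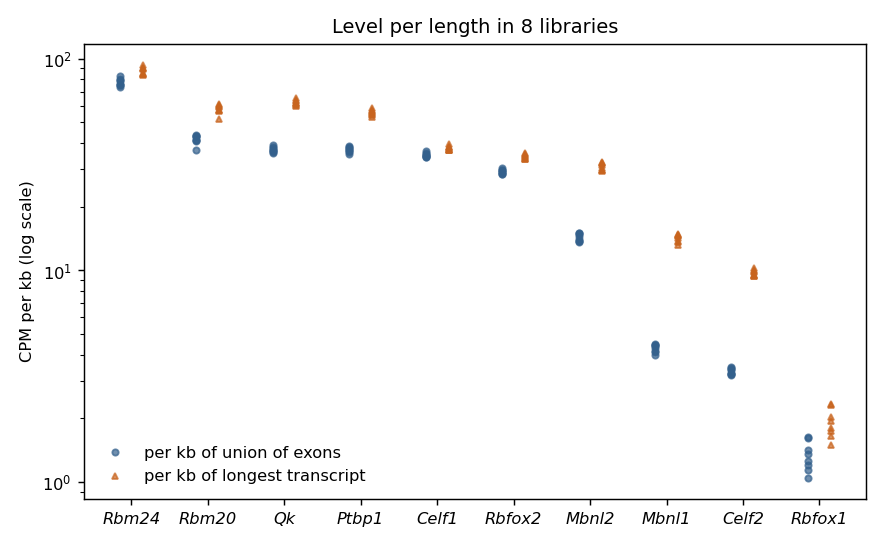
Level of each splicing regulator in CPM per kilobase (log axis), with 1 point per library (4 WT and 4 Flox-labelled) and length taken as the union of all annotated exons (circles) or as the longest transcript (triangles). Rbm24 is highest and Rbfox1 lowest on both scales, while the values of Mbnl1 and Celf2 depend strongly on the length used.

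The level per length rests on how the length of a gene is counted. For Celf2 the union of exons is 25884 bases and the longest transcript 8856 bases, and for Mbnl1 these lengths are 18717 and 5655 bases. Per kilobase of the longest transcript, Celf2 stood at 9.76 ± 0.336, Mbnl1 at 14.2 ± 0.589 and Mbnl2 at 31.0 ± 1.26 CPM per kb (SD, n = 8). On that scale Qk (62.3 ± 1.81 CPM per kb) came before Rbm20 (57.9 ± 2.99 CPM per kb), and the other 8 kept their places.

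Within the RBFOX, MBNL and CELF families one paralog prevailed over the other in every library, as did Rbm24 over Rbm20, which share a type of RNA-binding domain but are not close paralogs. Rbfox1 was at 0.0432 of the Rbfox2 level in WT and 0.0465 in Flox-labelled libraries, per kilobase of the union of exons. Mbnl1 was at 0.302 and 0.296 of Mbnl2, Celf1 at 10.5 and 10.6 times Celf2, and Rbm20 at 0.542 and 0.532 of Rbm24. Per kilobase of the longest transcript these WT ratios were 0.0527, 0.463, 3.87 and 0.665, with the same member ahead in each pair. No ratio differed between the groups by more than the spread of the libraries. The difference in log2 ratio, Flox-labelled minus WT, was 0.11 for Rbfox1 to Rbfox2 (SD 0.207 in WT and 0.274 in Flox-labelled libraries, exact permutation p = 0.486) and -0.03 for Mbnl1 to Mbnl2 (SD 0.0409 and 0.0281, exact permutation p = 0.314). It was 0.01 for Celf1 to Celf2 (SD 0.0499 and 0.0306, exact permutation p = 0.743) and -0.03 for Rbm20 to Rbm24 (SD 0.0923 and 0.0338, exact permutation p = 0.686). The 4 comparisons were two-sided with a smallest possible p of 0.0286, and their adjusted exact permutation p was 0.743 each.

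To ask whether the regulators themselves differed between WT and Flox-labelled ventricles, the groups were compared with edgeR over all tested genes. The changes lay between -4.34% for Ptbp1 and 7.43% for Rbm24, with 12.2% for Rbfox1, which has few counts. In edgeR's quasi-likelihood test 0 of the 10 passed a false discovery rate (FDR) of 0.05, where 0.526% of all tested genes did (0.312% higher and 0.214% lower), and their adjusted p ranged from 0.177 to 0.869. At an unadjusted p below 0.05 there were 2, Rbm24 and Qk, where 10.5% of all tested genes had such a p. DESeq2 called 1 (Rbm24), and limma voom and edgeR's likelihood ratio test called 0. The median log2 fold change was 0.06, against -0.0012 for all tested genes, and 9 of 10 were higher in Flox-labelled libraries, where 49.4% of all tested genes were. The groups did not overlap for 3 of the 10, where 6.05% of all tested genes showed no overlap. Of the 3, Rbm24 and Rbfox2 were higher, as were 3.07% of all tested genes, and Ptbp1 was lower, as were 2.98%. In whole ventricles, more RNA per cell and more cells of a type cannot be told apart.

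**Figure D2:**
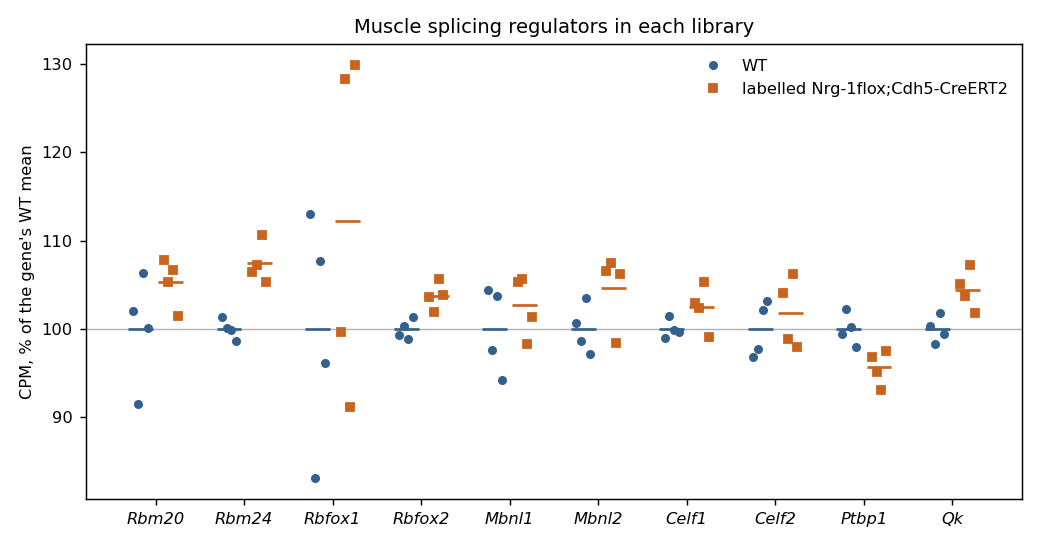
CPM of each regulator as a percentage of its WT mean, with 1 point per library (circles WT, squares Flox-labelled) and bars at the mean of the 4 libraries. Apart from Rbfox1, which has few counts, the points of both groups lie close to 100 percent, and the groups separate for Rbm24, Rbfox2 and Ptbp1.

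Rbm24 had the smallest p of the set. Its level (ENSMUSG00000038132, chromosome 13, 46418434 to 46431095, plus strand) was 265, 262, 261 and 258 CPM in WT libraries 1 to 4 and 278, 281, 289 and 275 CPM in Flox-labelled libraries 1 to 4. The lowest Flox-labelled library thus lay 10.2 CPM above the highest WT library, with Flox-labelled library 3 the highest of all. The mean was 261 ± 2.96 CPM in WT and 281 ± 6.03 CPM in the other group (SD, n = 4), and the log2 fold change was 0.10 (SE 0.0295, edgeR's adjusted p = 0.177), a change of 7.43% with a 95% interval of 2.78% to 12.3%. With DESeq2 the adjusted p was 0.0316, and over 20 alternatives it ranged from there to 0.470, the latter when the Y-linked sum entered the fit. That sum was 69.3 to 171 CPM in WT and 42.9 to 120 CPM in Flox-labelled libraries, and its part in the difference was not tested further.

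Rbm20, mutated in a form of dilated cardiomyopathy, was less even. Its level (ENSMUSG00000043639, chromosome 19, 53677306 to 53867080, plus strand) was 282, 253, 294 and 276 CPM in the WT group and 298, 291, 294 and 280.1 CPM in Flox-labelled libraries. The groups overlapped, and WT library 2 was the lowest of the 8. The log2 fold change was 0.07 (SE 0.0433, edgeR's adjusted p = 0.593), a change of 5.33% with a 95% interval of -1.29% to 12.4%.

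Of the RBFOX proteins, which bind the hexamer UGCAUG, Rbfox2 was the abundant one. It was at 233, 236, 232 and 238 CPM in WT and at 243, 239, 248 and 244 CPM in Flox-labelled libraries (ENSMUSG00000033565, chromosome 15, 77078990 to 77307004, minus strand). These groups were only 1.32 CPM apart. The log2 fold change was 0.05 (SE 0.0286, edgeR's adjusted p = 0.565), with a 95% interval of -0.595% to 8.32%. Rbfox1, better known from neurons and adult muscle, was at 6.24, 4.59, 5.95 and 5.31 CPM in WT and at 5.51, 7.09, 5.04 and 7.18 CPM in Flox-labelled libraries (ENSMUSG00000008658, chromosome 16, 5885355 to 7411526, plus strand). It had 104 to 169 counts per library and a wide 95% interval of -9.13% to 38.5% (log2 fold change 0.17, SE 0.14, edgeR's adjusted p = 0.753). This interval includes both 0 and the difference seen for Rbm24. Markers of neurons and Schwann cells were near the limit of detection, with 4 of 11 tested and a summed level of 9.71 to 11.4 CPM in WT and 9.37 to 11.5 CPM in Flox-labelled libraries.

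The muscleblind genes Mbnl1 and Mbnl2, whose proteins are sequestered in myotonic dystrophy, overlapped between the groups. Mbnl2 was at 169, 166, 174 and 164 CPM in WT and at 179, 181, 166 and 179 CPM in Flox-labelled libraries (ENSMUSG00000022139, chromosome 14, 120275669 to 120431697, plus strand). Flox-labelled library 3 was the exception in its group and fell among the WT values. The log2 fold change was 0.07 (SE 0.0368, edgeR's adjusted p = 0.579). Mbnl1 was at 82.8, 77.4, 82.25 and 74.7 CPM in WT and at 83.5, 83.8, 78.0 and 80.4 CPM in Flox-labelled libraries (ENSMUSG00000027763, chromosome 3, 60472830 to 60629750, plus strand), with a log2 fold change of 0.04 (SE 0.0393, edgeR's adjusted p = 0.807).

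The CELF genes had the smallest fold changes of the set. Celf1, which opposes MBNL proteins on a number of cardiac exons, was at 290.5, 298, 293 and 292 CPM in WT and at 302, 301, 309 and 291 CPM in Flox-labelled libraries (ENSMUSG00000005506, chromosome 2, 90940382 to 91019497, plus strand). The log2 fold change was 0.04 (SE 0.03, edgeR's adjusted p = 0.755). Celf2 was at 83.0, 83.8, 87.5 and 88.4 CPM in WT and at 89.2, 84.7, 91.04 and 83.9 CPM in Flox-labelled libraries (ENSMUSG00000002107, chromosome 2, 6539694 to 7509563, minus strand), with a log2 fold change of 0.03 (SE 0.0354, edgeR's adjusted p = 0.869). For Celf2 the values of the groups were interleaved, whereas for Celf1 only Flox-labelled library 4 lay among the WT values and the other 3 above them.

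Ptbp1, a repressor of muscle and neuronal exons, was the only regulator with a lower mean in Flox-labelled libraries. It was at 179, 184, 181 and 177 CPM in WT and at 175, 172, 168 and 176 CPM in Flox-labelled libraries (ENSMUSG00000006498, chromosome 10, 79854427 to 79864771, plus strand). The groups did not overlap, although by only 0.788 CPM. The log2 fold change was -0.06 (SE 0.0307, edgeR's adjusted p = 0.498), a change of -4.34% with a 95% interval of -8.65% to 0.167%. Qk was at 522, 512, 530.3 and 518 CPM in WT and at 547, 540.0, 558 and 529.8 CPM in Flox-labelled libraries (ENSMUSG00000062078, chromosome 17, 10202601 to 10319854, minus strand). The groups overlapped through WT library 3 and Flox-labelled library 4 alone, and the log2 fold change was 0.06 (SE 0.0289, edgeR's adjusted p = 0.473), a change of 4.45% with a 95% interval of 0.0141% to 9.08%.

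**Figure D3:**
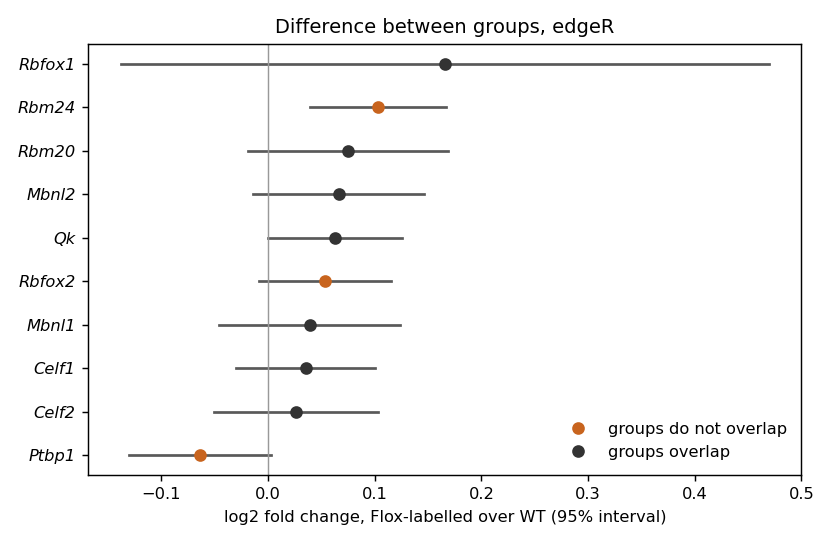
Log2 fold change of each regulator, Flox-labelled over WT, with its 95% interval from edgeR's quasi-likelihood fit (4 libraries per group). The intervals of all but Rbm24 and Qk include 0, that of Rbfox1 is the widest, and no adjusted p was below 0.177.

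The small differences were measured with correspondingly small errors. Apart from Rbfox1, the coefficient of variation within a group was 1.07% to 6.24% in WT and 1.47% to 4.03% in Flox-labelled libraries. It was lowest for Celf1 in WT and highest for Rbm20 in WT. The median over the 2654 tested genes at least as abundant as Mbnl1 was 2.91% in WT and 3.34% in Flox-labelled libraries. The median absolute log2 fold change was 0.031 over these 2654 genes and 0.059 over all tested genes, against 0.063 over the 10 regulators. The 95% intervals of the 9 genes other than Rbfox1 lay within -8.65% and 12.4%. Separation between groups by less than 2 CPM, as for Rbfox2 and Ptbp1, depended on the scaling. With library totals in place of TMM factors the regulators without overlap were Rbm24 and Qk, and with RLE or upper quartile factors Rbm24, Rbfox2, Ptbp1 and Qk. The summed level of the 10 was 2076 to 2141 CPM in WT and 2146 to 2207 CPM in Flox-labelled libraries.

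Whether the regulators varied together from library to library was examined over the 8 libraries. Of 45 pairs, 28 had a positive Pearson's r of log2 CPM, and 11 had an unadjusted exact permutation p below 0.05, but after adjustment over the 45 pairs 0 did, with either Pearson's r or Spearman's rho. The pair with the smallest p of Pearson's r, Rbm24 and Qk, had r = 0.90 (exact permutation p = 0.00226, adjusted 0.0997) and rho = 0.79 (exact permutation p = 0.0279, adjusted 0.209), and r = 0.79 without WT library 4 and Flox-labelled library 3. Ptbp1 went against both, with r = -0.86 for Rbm24 (exact permutation p = 0.00561, adjusted 0.0997) and rho = -0.83 (exact permutation p = 0.0154, adjusted 0.173). For Ptbp1 and Qk, r was -0.86 (exact permutation p = 0.00665, adjusted 0.0997) and rho -0.81 (exact permutation p = 0.0218, adjusted 0.196). Without the 2 libraries farthest from the median of the first-named gene, r was -0.94 for Rbm24 and Ptbp1 (WT library 4 and Flox-labelled library 3 left out). In the same way r was -0.57 for Ptbp1 and Qk (WT library 2 and Flox-labelled library 3 left out). Rbm20 and Qk had the smallest p of Spearman's rho, 0.93 (exact permutation p = 0.00223, adjusted 0.10), with r = 0.81 (exact permutation p = 0.0112, adjusted 0.117) and r = 0.78 when WT library 2 and Flox-labelled library 1 were left out. These values include the difference between the groups. With the group means removed, r was 0.70 for Rbm24 and Qk, 0.75 for Rbm20 and Qk, -0.54 for Rbm24 and Ptbp1, and -0.61 for Ptbp1 and Qk. Mbnl1 and Mbnl2 had r = 0.82 (exact permutation p = 0.0182, adjusted 0.117) and rho = 0.88 (exact permutation p = 0.00724, adjusted 0.163). For this pair r was also 0.82 with the group means removed, and 0.65 without WT libraries 2 and 4. Rbfox2 and Mbnl2 had r = 0.13 over the 8 libraries (exact permutation p = 0.746, adjusted 0.839) and rho = 0.10 (exact permutation p = 0.840, adjusted 0.879). Leaving out library 3 of each group gave r = 0.70, whereas with the group means removed r was -0.91 for this pair and -0.89 for Rbfox2 and Mbnl1. These were the lowest values among the 45 pairs with the group means removed, and r with the group means removed was not tested for any pair.

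**Figure D4:**
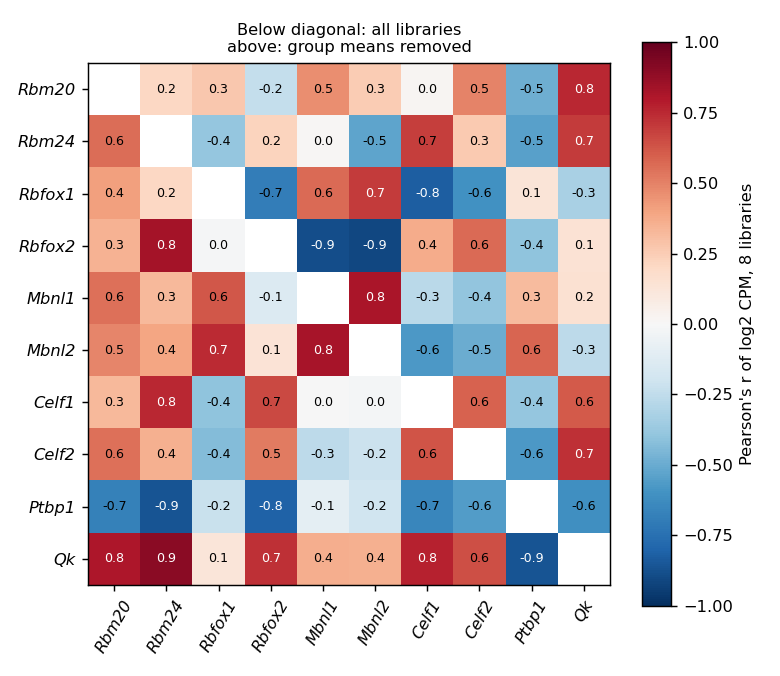
Pearson's r of log2 CPM between pairs of regulators over 8 libraries, below the diagonal as measured and above it after the mean of each group was removed. Qk and Rbm24 share high positive values, Ptbp1 is mostly negative, and Mbnl1 and Mbnl2 have r = 0.82 on both sides.

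Among 9908 other tested genes with a mean of at least 10 CPM, the 3 with a profile most like that of Rbm24 over the 8 libraries were Srsf2 (r = 0.99, rho = 1.00), Vegfb (r = 0.99, rho = 0.95) and C530008M17Rik (r = 0.98, rho = 0.98). For Ptbp1 they were Smad1 (r = 0.95, rho = 0.93), Rsl1d1 (r = 0.95, rho = 0.88) and Tspan7 (r = 0.95, rho = 1.00). As the highest of 9908 values over only 8 libraries, these correlations are descriptions and carry no test.

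Other splicing factors were then counted to place the 10 regulators. Of 10 close relatives, 6 passed the filter on low counts, and 0 were called by edgeR at FDR 0.05 (1 at an unadjusted p below 0.05). Their median log2 fold change was 0.03 and 6 of 6 were above 0, of which Ptbp3, Celf4 and Mbnl3 were below 0 when certain libraries were left out. Rbm38, the paralog of Rbm24, was at 94.1, 87.2, 90.9 and 93.7 CPM in WT and at 96.1, 98.3, 96.3 and 95.3 CPM in Flox-labelled libraries, so that the groups did not overlap (log2 fold change 0.08, SE 0.0316, edgeR's adjusted p = 0.404). Ptbp2 (0.04), Ptbp3 (0.02), Matr3 (0.02), Celf4 (0.11) and Mbnl3 (0.01) had adjusted p of 0.748 to 0.990 in edgeR's test. Rbfox3, Celf3, Celf5 and Celf6, which are mainly neuronal, were below the filter, at 0.601 CPM or less in each library.

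Of the SR proteins, which promote exon inclusion, 12 of 13 had a log2 fold change above 0, and the median was 0.05. In edgeR's test 0 of 13 passed (3 at an unadjusted p below 0.05). Srsf2 was at 244, 238, 237 and 229 CPM in WT and at 255, 259.8, 269 and 252 CPM in Flox-labelled libraries (log2 fold change 0.13, SE 0.0329, edgeR's adjusted p = 0.124), and Srsf1 had a log2 fold change of 0.09 (edgeR's adjusted p = 0.356). Of 20 hnRNPs, 1 was called. Hnrnpa0 was at 219, 217, 213 and 213 CPM in WT and at 235, 236, 248 and 243 CPM in Flox-labelled libraries, with no overlap, and rose by a log2 fold change of 0.16 (SE 0.0309, edgeR's adjusted p = 0.0454). Its adjusted p was below 0.05 in 10 of 20 alternatives and ranged up to 0.173, and the call was lost on leaving out any library except Flox-labelled library 4. The median of the hnRNPs was 0.01, with 14 of 20 above 0. Of 34 other splicing regulators tested, 0 passed in edgeR's test (1 at an unadjusted p below 0.05), with a median of 0.02, and the smallest p were those of Pcbp1 (0.10, edgeR's adjusted p = 0.281) and Raver2 (0.13, edgeR's adjusted p = 0.550).

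Genes whose transcripts are known to be spliced by these factors were examined at the level of the gene. Of 29 such genes 0 passed in edgeR's test (6 at an unadjusted p below 0.05, 4 of them higher), and the median log2 fold change was 0.03. Nrap, a protein of forming myofibrils, averaged 321 ± 15.8 CPM in WT and 353 ± 28.0 CPM in Flox-labelled libraries (SD, n = 4), and its log2 fold change was 0.14 (edgeR's adjusted p = 0.379). Ttn, the main target of RBM20, is given in addition, chosen after its values were seen. It was at 3034, 1835, 2898 and 2498 CPM in WT and at 3648, 2814, 3432 and 1597 CPM in Flox-labelled libraries, a spread within each group that exceeded the difference between them (log2 fold change 0.16, SE 0.209, edgeR's adjusted p = 0.859). WT library 2, lowest in Ttn within its group, was also lowest in Rbm20, and Flox-labelled library 4 was lowest in both within its own.

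**Figure D5:**
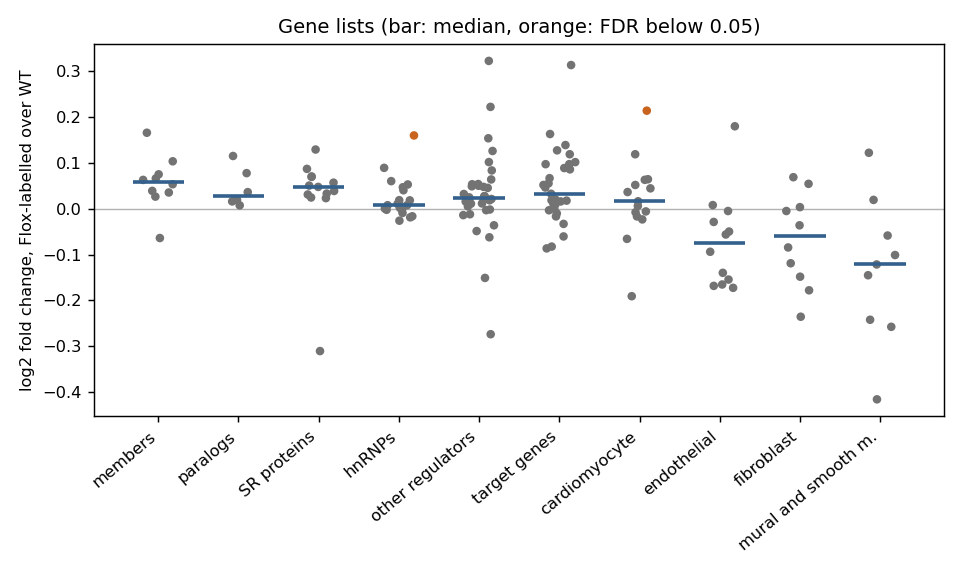
Log2 fold change, Flox-labelled over WT, of the tested genes of each list (1 point per gene, bar at the median, orange where edgeR's adjusted p was below 0.05). The splicing lists lie slightly above 0 with medians of 0.01 to 0.06, and the endothelial, fibroblast and mural lists below it.

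Markers of the cell types of the ventricle were read beside these values. The cardiomyocyte list had a median log2 fold change of 0.02, and 1 of 15 was called: Nkx2-5, a cardiac transcription factor, was at 101, 96.4, 92.2 and 98.1 CPM in WT and at 111, 111, 116 and 112 CPM in Flox-labelled libraries and rose by a log2 fold change of 0.21 (SE 0.0334, edgeR's adjusted p = 0.0194). It was called in 15 of 20 alternatives, but not without WT library 2 or 3 or Flox-labelled library 3 (adjusted p of 0.0688, 0.0632 and 0.0862), nor with the Y-linked sum in the fit (adjusted p = 0.0897), nor with GC and length offsets (log2 fold change 0.11, adjusted p = 0.111). Directions were mixed among the cardiomyocyte markers, 9 being higher and 6 lower in Flox-labelled libraries. Myh6, given in addition after its values were seen, was lower. It averaged 2330 ± 187 CPM in WT and 2041 ± 86.5 CPM in Flox-labelled libraries (SD, n = 4). Its groups overlapped and it was not called (log2 fold change -0.19, edgeR's adjusted p = 0.134). Of the endothelial markers 10 of 12 were below 0 (median -0.08), and they summed to 1526 to 1590 CPM in WT and 1433 to 1553 CPM in Flox-labelled libraries. In edgeR's test 0 of the 12 passed. At an unadjusted p below 0.05 there were 6 (1 higher and 5 lower), where 10.5% of all tested genes had such a p. Esam (-0.15, edgeR's adjusted p = 0.0584) and Kdr (-0.17, edgeR's adjusted p = 0.0693) had the smallest p. The groups did not overlap for 4 of the 12 (Kdr, Tie1, Esam and Cldn5, each lower), where 6.05% of all tested genes showed no overlap. The fibroblast list had a median of -0.06 and sums of 6753 to 7936 and 6706 to 7811 CPM. The mural and smooth muscle list had a median of -0.12, with 7 of 9 below 0, and sums of 2022 to 2126 and 2088 to 2194 CPM. Most of these sums was Acta2, which was higher, with means of 1308 CPM in WT and 1423 CPM in Flox-labelled libraries. Atrial genes had a median of -0.22 and sums of 1747 to 1984 and 1720 to 1859 CPM. Their part in the values of the splicing regulators was not tested.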

How the data were processed

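Polyadenylated RNA of heart ventricles was sequenced as single reads of 60 bases from directional libraries. The submitters' processing notes name cutadapt, RSEM 1.3.1 and GRCm38. The authors deposited RSEM expected counts per gene, on Ensembl release 91 by the name of the table, and 18.1% of the values were not whole. The aligner and the strand setting are not given in the sources used here. Expected counts were rounded, filtered with filterByExpr and scaled with TMM factors (0.988 to 1.01), and tested between groups by the quasi-likelihood method of edgeR 4.0.16 (two-sided, group as the only term, Benjamini-Hochberg adjustment, FDR 0.05) in R 4.3.3. CPM uses the TMM factors. The F statistic gave standard errors and 95% intervals. Symbols, positions, lengths and transcript sequences came from GENCODE release M21 (GRCm38), which matched 53360 of 53465 identifiers.

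Exact permutation tests over libraries served for single values. Alternatives were RLE, upper quartile and total scaling, other filters (none, or a CPM of at least 1 in 4 libraries), edgeR's likelihood ratio test, DESeq2 1.42.0, limma 3.58.1 voom, the replicate number or the Y-linked level in the fit, a table without Xist, Y-linked, globin and mitochondrial genes, GC and length offsets (lowess, span 0.3), and leaving out each library. The scripts were tested on simulated data. Libraries differed by more than sampling noise (lowest chi-square 2.98 per degree of freedom). Nothing states that libraries came from separate litters, so p-values measure the spread between these libraries.

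The regulators and gene lists were chosen with earlier results of these data known. The genes named are the 10 regulators, Nrg1, relatives that passed the filter, the genes called in each list or otherwise the 2 with the smallest p, and the 3 genes most like the regulator with the smallest p in each direction; some genes that this rule names are not reported here. Of further lists, neural and Schwann cell (Stmn2, -0.63), macrophage (Csf1r, 0.14 and Lyve1, -0.17) and erythroid genes (Hbb-y, 0.35 and Hba-a2, 0.15) held 0 calls in edgeR's test. The genes with the smallest p were Postn (-0.18) and Dpt (-0.24) in the fibroblast list, Kcnj8 (-0.24) and Acta2 (0.12) in the mural list and Bmp10 (-0.55) and Dkk3 (-0.24) in the atrial list (log2 fold changes). Plots were made in Python 3.11.15 (matplotlib 3.10.9).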

Additional observations from a re-analysis of the deposited data

Results flagged for a closer look

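Of 28 groups of 4 values examined (the 10 regulators and the 4 ratios between pairs of regulators in each group), 1 contained a value set apart from its neighbours, where chance gives about 1.4. This was Mbnl2 in Flox-labelled library 3, at 165.7 CPM, whereas libraries 1, 2 and 4 of that group lay between 178.8 and 181.0 CPM. Without that library the log2 fold change of Mbnl2 was 0.09, against 0.07 with it.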

How the results depend on the processing

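Each of the 10 regulators kept its direction in all 20 alternative fits, and 1 of these 200 values passed FDR 0.05 (Rbm24 with DESeq2), so that 1 regulator was called with DESeq2 and, at an unadjusted p below 0.05, a threshold added after seeing the data, 2. The median of the regulators stayed between 0.049 and 0.066 when a library was left out. Single fold changes moved more: when a library was left out, the log2 fold change was 0.0049 to 0.043 for Celf2, 0.013 to 0.06 for Mbnl1, 0.035 to 0.11 for Rbm20, 0.022 to 0.051 for Celf1 and 0.087 to 0.26 for Rbfox1, the lowest being without Flox-labelled library 3 (Celf1 and Celf2), WT library 4 (Mbnl1) or WT library 2 (Rbm20 and Rbfox1). The difference in log2 ratio of Rbfox1 to Rbfox2 was then 0.019 to 0.21 and that of Mbnl1 to Mbnl2 -0.041 to -0.0086. With the Y-linked sum in the fit, Celf1 was at 0.011, Mbnl1 at 0.020 and Rbfox1 at 0.26, and with GC and length offsets Celf2 was at 0.017. For each shift listed next the cause was not tested. Over all tested genes there were 81 calls (48 higher, 33 lower). The number was 338 without a filter (154 higher, 184 lower), 242 with the likelihood ratio test (124 higher, 118 lower), 198 with DESeq2 (103 higher, 95 lower), 16 when the Y-linked sum entered the fit (12 higher, 4 lower), 190 at FDR 0.1 (95 higher, 95 lower) and 57 with limma voom (30 higher, 27 lower). Leaving out 1 library gave 11 to 142 calls (6 to 61 higher, 5 to 81 lower): 47, 14, 20 and 33 without WT libraries 1 to 4, and 32, 34, 11 and 142 without Flox-labelled libraries 1 to 4. Regulators without overlap numbered 3 to 5 when a library was left out, the 5 without Flox-labelled library 4, and 2 with total scaling, comparisons added after seeing the data. In the order per length, 2 regulators (Qk and Rbm20) changed places with the longest transcript and 2 with the exons of the listed transcripts, the latter added after seeing the data. The difference in log2 ratio of Celf1 to Celf2 ranged from -0.0080 to 0.027 and that of Rbm20 to Rbm24 from -0.069 to 0.0045 when a library was left out. Of the relatives, Ptbp3 had log2 fold changes of -0.023 to 0.041, Celf4 of -0.015 to 0.303 and Mbnl3 of -0.022 to 0.064 when a library was left out, Ptbp3 and Celf4 being below 0 without Flox-labelled library 4 only. Srsf2 passed with DESeq2, Nrap without Flox-labelled library 4, Esam in 2 and Kdr in 4 alternatives. Same-numbered libraries of the groups had correlations of their deviations of 0.122, 0.0522, 0.0395 and 0.124, against -0.0943 to 0.0232 for differently numbered ones. Each library was thus closest to its own number, but the labels name no shared litter and not all 4 exceeded 0.1, so they were treated as unpaired. The exact permutation tests and the correlations between regulators were run only without a block. With the replicate block 93 genes were called, and 0 of the regulators; Hnrnpa0 was no longer called (adjusted p = 0.0661).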
